A study of Schizosaccharomyces pombe with 12 samples.

Results

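Fission yeast (Schizosaccharomyces pombe) cells mutated in ubp8 were compared with wild-type cells after exposure to hydrogen peroxide, using sequenced polyA RNA. The comparison took 4 of the 12 libraries of the series, chosen by their labels: 2 libraries of peroxide-treated ubp8 cells and 2 of peroxide-treated wild-type (WT) cells, measured across all genes. The ubp8 strain carries the genotype ubp8 in the labels, and the series' design text calls it a deleted strain; the WT strain is 972. Both strains were grown in the rich medium YE5S and kept for 30 min in 1 mM H2O2, so every library of the comparison carries the treatment. RNA was extracted with hot phenol and prepared with a stranded mRNA kit. The 8 other libraries were untreated ubp8 and untreated WT cells, and treated and untreated cells of a ubp16 mutant, with 2 libraries in each group. Whether the 2 libraries of each group are from separate cultures is not stated in the labels, and p-values therefore cover only the spread between these samples, which may be technical. In bulk RNA, fewer cells of a kind and less RNA per cell cannot be told apart.

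Ubp8 is the ubiquitin-specific protease of SAGA, a coactivator complex that also acetylates histones and delivers the TATA-binding protein to promoters. It removes ubiquitin from histone H2B, a mark that the ligase Brl2 and its partners place on transcribed genes. Fission yeast answers hydrogen peroxide through the MAP kinase Sty1 with its transcription factor Atf1, and through the transcription factor Pap1, whose targets encode thioredoxin reductase, sulfiredoxin and export pumps. Misfolded proteins are met by heat shock factor and its chaperone genes, while growth genes, among them those for ribosomes, are turned down.

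Levels are CPM, the count of a gene relative to the scaled total of its library, and differences are log2 fold changes ± SE of treated ubp8 over treated WT, with n = 2 libraries in each group. A gene was called at an adjusted p under 0.05 in edgeR's quasi-likelihood test with Benjamini-Hochberg adjustment over 8166 genes. Totals of the 12 libraries ran from 9904056 to 14054746 counts, and 3 counts in a library came to 0.185 to 0.316 CPM. Libraries of the same group had Pearson correlations of 0.9887 to 0.9918 in log2 CPM; these run over genes, and genes are not independent replicates.

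The ubp8 transcript (SPAC13A11.04c) had 10.63 and 9.237 CPM in treated ubp8 cells, against 29.89 and 37.49 CPM in treated WT cells. Both mutant libraries lay below both WT libraries, at 29.6% of the WT level (-1.76 ± 0.15), and neither was at 0. The position of these reads within the gene cannot be read from a count per gene. The neighbouring coding gene mcp7, which encodes a meiotic protein, had 8.798 and 6.676 CPM against 10.84 and 9.176 CPM and was not called (-0.36 ± 0.22, adjusted p = 0.238). The other 3 neighbours, all non-coding RNAs, had too few counts to be tested.

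Peroxide-treated ubp8 cells differed from treated WT cells in 2637 of 8166 genes (32.3%), with 1356 (16.6%) higher and 1281 (15.7%) lower. By at least 2-fold, 467 genes (5.72%) were higher and 243 (2.98%) lower. The libraries of the groups did not overlap for 5622 genes (68.8%). The median log2 fold change was 0.04 over all genes and -0.01 over coding genes. The count of higher genes was smaller when any 1 of the 4 libraries was left out. Each of these fits leaves 1 library in a group, so the smaller count cannot be laid to the library left out alone. With library totals alone as scaling, 2128 genes were higher and 769 lower, and the median of all genes was 0.193, so that small falls depend on the scaling.

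Coding and non-coding genes divided differently between the directions. Of 4954 coding genes 921 were higher (18.6%) and 1013 lower (20.4%); 167 and 53 of them passed 2-fold. Of 3109 long non-coding RNAs 420 were higher (13.5%) and 242 lower (7.78%). Of 22 pseudogenes 11 were higher and 1 (4.55%) lower, with a median of 0.74. Of 42 small nucleolar RNAs none was higher and 21 were lower, with a median of -1.34.

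**Figure D1:**
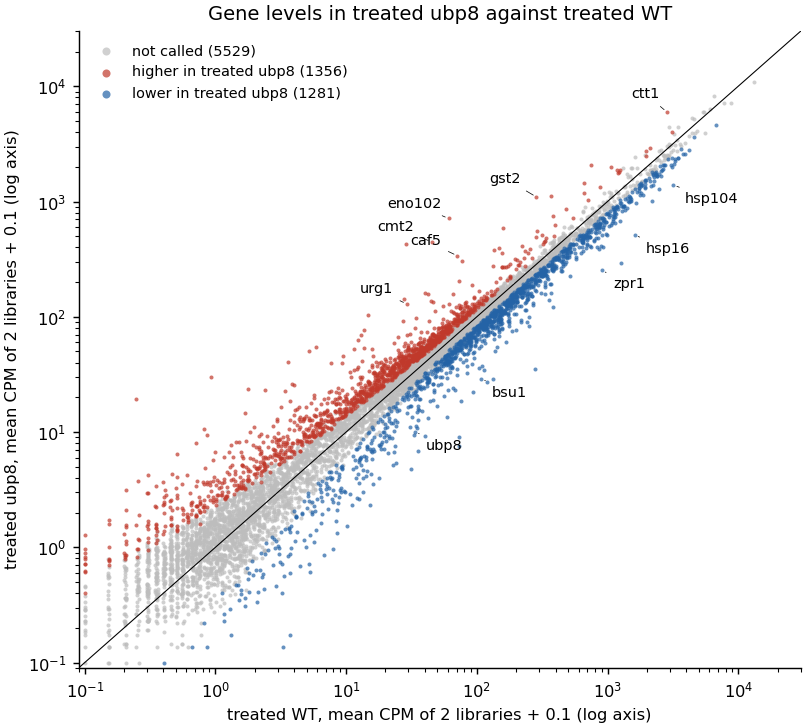
Mean level of each of 8166 tested genes in treated ubp8 cells (vertical) against treated WT cells (horizontal), in CPM plus 0.1 on log axes. Red points are the 1356 genes called higher and blue points the 1281 called lower, and the diagonal marks equal levels.

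The largest rises were in genes that treated WT cells barely expressed. SPBPB21E7.10, an uncharacterized gene, had 286 and 193 counts in the treated ubp8 libraries, against 0 and 3 counts in treated WT. Summed and scaled, treated ubp8 cells held 128 times the WT count, with an exact 95% interval of 43.4 to 621 that covers counting error only. The gene beside it, SPBPB21E7.02c, annotated in the phosphoglycerate mutase family, had 448 and 292 counts against 11 and 5, a ratio of 37 (22.6 to 65). For these genes the groups did not overlap, but the rule that named them required that.

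The starts of these 2 genes face away from each other with 290 bases between them, so one intergenic stretch holds both upstream windows, which share 210 bases. The 250 bases before the annotated start of SPBPB21E7.10 are shown because they are the common upstream region of the genes with the largest rises; capitals mark a TTACTAA match, a variant of the Pap1 site, and a CCAAT match. The sequences here are RefSeq's, of assembly ASM294v3, since no source used here gives the build behind the deposited counts. This stretch is II:61246-61495, plus strand.
SPBPB21E7.10: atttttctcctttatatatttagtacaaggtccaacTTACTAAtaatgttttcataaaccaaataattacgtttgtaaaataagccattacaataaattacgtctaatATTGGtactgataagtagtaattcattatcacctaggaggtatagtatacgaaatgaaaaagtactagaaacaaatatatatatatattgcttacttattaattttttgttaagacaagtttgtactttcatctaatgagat
TTACTAA, read on both strands, stood in 10.7% of all 5112 promoters of this length and in 23 of 167 coding genes at least 2-fold higher, against 5 of 53 at least 2-fold lower.

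Further genes of the same cluster of systematic names rose with them. eno102, an enolase gene, had 799.7 and 624.4 CPM in treated ubp8 cells, against 60.09 and 61.27 CPM in treated WT (3.55 ± 0.19). cmt2, a catechol O-methyltransferase gene, had 472.2 and 419.9 CPM against 43.78 and 46.18 CPM (3.31 ± 0.15). In both, each ubp8 library exceeded each WT library several-fold. eno102 has a near relative in the genome, so that its reads may be shared.

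A similar run of adjacent names held SPAC869.09, a Con-6 family gene (3.80 ± 0.45), mel1, which encodes the sugar-cleaving enzyme melibiase (3.55 ± 0.27), and pcm2, which encodes a protein repair methyltransferase (2.76 ± 0.24). These were named for their rises, and cat1 (SPAC869.11) of the same run was lower (-0.59 ± 0.11). mel1 had 45.75 and 35.58 CPM in treated ubp8 cells, against 3.999 and 2.96 CPM in treated WT. In another run, hhy1, a hydrolase gene, had 69.28 and 31.55 CPM against 5.577 and 4.539 CPM (3.33 ± 0.32). Its mutant libraries differed from each other more than 2-fold, yet both stood far above WT. Beside hhy1 in name and order lie str3, shu1 and ght3, whose values follow under iron and sugar transport.

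Other coding genes with large rises were scattered in function. SPAPB1A11.03, annotated as a cytochrome-dependent L-lactate dehydrogenase, had 443.8 and 413.5 CPM in treated ubp8 cells, against 30.41 and 26.94 CPM in treated WT (3.90 ± 0.24). spn5, which encodes a meiotic septin, had 14.44 and 14.45 CPM against 1.473 and 1.677 CPM (3.19 ± 0.29). SPBC1289.14, an adducin gene (2.82 ± 0.21), and the uncharacterized SPAC4F10.17 (2.80 ± 0.38) completed the list of 12. None of these groups of libraries overlapped, but the rule for this list required that.

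Since several of these names lie toward chromosome ends, calls were counted by distance from an end of the assembly, with a window chosen after the values had been seen. Within 100 kb of an end, 55 of 131 coding genes were higher and 27 lower, beside 18.6% higher and 20.4% lower among all coding genes; the count of lower genes is near that share. Higher genes made up 51.1% of the 47 coding genes between 50 and 75 kb and 17.5% of the 4594 beyond 200 kb. Over all kinds of genes the left end of chromosome II had 24 higher of 40 tested (60%). The right end of chromosome III had 10 higher of 61 (16.4%, near the 16.6% of all genes) and 18 lower. In untreated ubp8 cells 30 of those 40 genes and 18 of those 61 were higher than in untreated WT. Over all genes that untreated share was 15.1%.

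**Figure D2:**
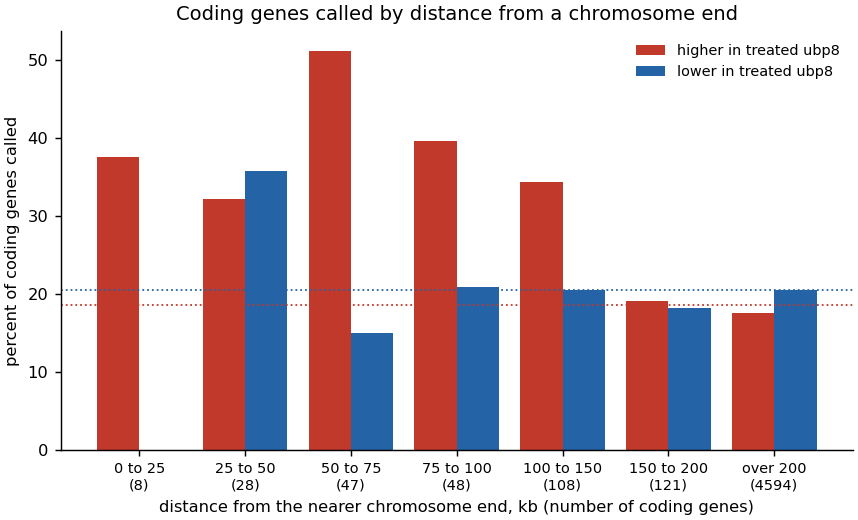
Percent of coding genes called higher (red) or lower (blue) in treated ubp8 cells by distance in kb from the nearer chromosome end, with the number of genes under each pair of bars and the shares over all coding genes as dotted lines. The share of higher genes is 51.1% at 50 to 75 kb and 17.5% beyond 200 kb; the bin nearest the ends holds only 8 genes.

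Coding genes with the largest falls included those for a vitamin importer, an elongation factor binding protein and an invertase. SPAPB24D3.07c, which is uncharacterized, had 32.63 and 37.5 CPM in treated ubp8 cells, against 279.3 and 274.1 CPM in treated WT (-2.98 ± 0.17). bsu1, which encodes a vitamin B6 importer, had 27.57 and 30.27 CPM against 112.5 and 104.1 CPM (-1.91 ± 0.11). zpr1, whose product binds the elongation factor EF-1 alpha, had 249.1 and 255.6 CPM against 978 and 838.2 CPM (-1.85 ± 0.10). In each the mutant libraries lay close together and well below both WT libraries.

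The list went on with SPAPB1A10.05, uncharacterized (-1.64 ± 0.11), cbm1, a cellulose-binding domain gene (-1.60 ± 0.17), and inv1, the secreted invertase gene that glucose represses (-1.54 ± 0.13). inv1 had 40.69 and 34.39 CPM in treated ubp8 cells, against 109.1 and 110.2 CPM in treated WT. mug45 (-1.50 ± 0.24) is named for its rise in meiosis. met17, the homocysteine synthase gene (-1.46 ± 0.17), thi9, a thiamine importer gene (-1.38 ± 0.12), and thi201, a thiamine synthesis gene (-1.37 ± 0.12), closed it.

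Chaperone genes were lower in treated ubp8 cells. Of 20 tested, 15 fell and none rose, beside 15.7% of all genes that fell, and their median was -0.53 beside 0.04 over all genes. The remaining 5 also had values below 0, and 17 of the 20 lay lower in the treated comparison than in the untreated one. The median of treated minus untreated values was -0.44 for the list, beside 0.17 over coding genes. Untreated values depend on scaling: the untreated median of the list was -0.16, and 0.14 with library totals. Summed over the list, treated ubp8 cells held 38307.7 and 37793.2 CPM of chaperone transcripts, against 53289.7 and 53796.9 CPM in treated WT. Leaving out any 1 of the 4 libraries left 12 or 13 members lower.

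hsp16, which encodes a small heat shock protein, had 374.8 and 648.3 CPM in treated ubp8 cells, against 1570 and 1666 CPM in treated WT (-1.66 ± 0.26). hsp104, the disaggregase gene, had 1396 and 1381 CPM against 3214 and 3179 CPM (-1.20 ± 0.19). hsp78, its mitochondrial counterpart, had 1282 and 1304 CPM against 2468 and 2487 CPM (-0.94 ± 0.12). For these 3 genes the mutant libraries held less than a WT library in every pairing, and those of hsp16 were the least alike. mas5, a DNAJ co-chaperone gene whose product in fission yeast restrains heat shock factor, had 542.8 and 476.3 CPM against 996.1 and 984.7 CPM (-0.96 ± 0.10).

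The abundant Hsp70 genes ssa1 and ssa2 were not called. ssa1 had 4056 and 3854 CPM in treated ubp8 cells, against 5410 and 5647 CPM in treated WT (-0.48 ± 0.20, adjusted p = 0.08). ssa2 had 11180 and 10680 CPM against 13190 and 13270 CPM (-0.28 ± 0.12, adjusted p = 0.0848). Both were below WT in each library, and both passed in a fit of the 4 libraries alone.

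The core of the heat shock element, GAANNTTC on either strand, stood within 250 bases before the start of 12 of 20 chaperone genes, against 9.49% of all 5112 promoters of this length. Of the 15 chaperone genes that fell, 9 held it, and hsp104 did not. The hsp16 window is shown as that of the chaperone with the largest fall, with the heat shock element and a CCAAT match in capitals; it is II:2660993-2661242, minus strand.
hsp16: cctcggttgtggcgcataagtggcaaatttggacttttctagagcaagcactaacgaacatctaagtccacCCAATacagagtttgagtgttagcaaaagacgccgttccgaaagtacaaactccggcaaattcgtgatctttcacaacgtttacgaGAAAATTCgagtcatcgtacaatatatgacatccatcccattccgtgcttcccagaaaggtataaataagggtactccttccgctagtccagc

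Targets of Pap1 were higher in treated ubp8 cells. Of 13 tested, 11 rose and none fell, beside 16.6% of all genes that rose, and their median was 0.56. Of these 11, 7 passed without replicate 1 of treated ubp8 and 7 without replicate 1 of treated WT. caf5, which encodes a membrane transporter, had 426.6 and 250.1 CPM in treated ubp8 cells, against 72.19 and 69.36 CPM in treated WT (2.26 ± 0.18). gst2, a glutathione S-transferase gene, had 1275 and 914.6 CPM against 259.6 and 311.5 CPM (1.94 ± 0.17). trr1, the thioredoxin reductase gene, had 2583 and 1597 CPM against 736.9 and 751.9 CPM (1.49 ± 0.17).

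In these 3 genes and in osr1, a dehydrogenase gene (1.15 ± 0.18), replicate 1 of treated ubp8 held more than replicate 2, and both exceeded both WT libraries. srx1, the sulfiredoxin gene, had 583.5 and 517.9 CPM in treated ubp8 cells, against 286.1 and 289.1 CPM in treated WT (0.94 ± 0.10). The exceptions of the list were sro1 (-0.30 ± 0.15, adjusted p = 0.128) and oxr1 (-0.11 ± 0.13, adjusted p = 0.549). sro1 was called lower without replicate 2 of treated ubp8 (-0.54) and without replicate 1 of treated WT (-0.48), and oxr1 turned to 0.04 with library totals as scaling.

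TTAGTCA, a form of the Pap1 site, stood on either strand within 250 bases before the start of 6 of the 13 Pap1 targets, against 3.89% of all 5112 promoters of this length. It stood in 15 of 167 coding genes at least 2-fold higher and in 0 of 53 at least 2-fold lower. The windows of caf5 (II:3166331-3166580, plus strand) and gst2 (III:2296106-2296355, minus strand) are shown as the targets with the largest rises, with both forms of the Pap1 site (TTAGTCA and TTACTAA) and, in caf5, a CCAAT match in capitals.
caf5: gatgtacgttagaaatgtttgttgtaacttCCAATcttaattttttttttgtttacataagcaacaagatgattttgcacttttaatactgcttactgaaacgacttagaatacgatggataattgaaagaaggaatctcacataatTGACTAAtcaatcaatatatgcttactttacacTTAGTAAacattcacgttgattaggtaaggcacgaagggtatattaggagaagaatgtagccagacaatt
gst2: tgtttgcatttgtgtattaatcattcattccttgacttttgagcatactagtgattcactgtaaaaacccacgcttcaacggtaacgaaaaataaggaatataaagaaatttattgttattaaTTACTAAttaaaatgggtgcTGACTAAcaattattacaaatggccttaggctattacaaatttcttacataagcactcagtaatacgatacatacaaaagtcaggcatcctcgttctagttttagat

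**Figure D3:**
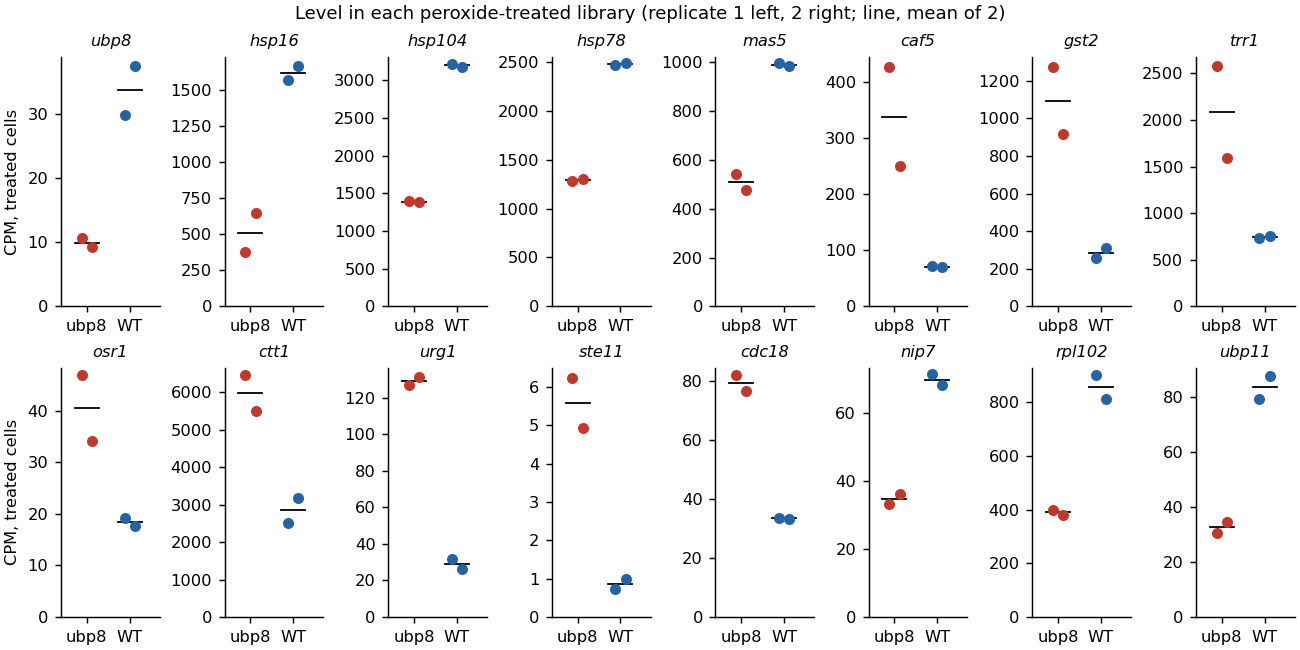
Level in CPM of 16 genes in each treated library, ubp8 left in red and WT right in blue, with replicate 1 to the left of replicate 2 and a line at the mean of 2. No gene shown has overlapping groups; ubp8, the 4 chaperones, nip7, rpl102 and ubp11 lie lower and the other 8 higher in treated ubp8 cells.

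Antioxidant enzymes are a list that shares several members with the Pap1 targets. Of 26 members 10 were higher (38.5%, beside 16.6% of all genes) and 1 lower (3.85%, beside 15.7%), with a median of 0.14. Without replicate 1 of treated ubp8 6 members rose, and without replicate 1 of treated WT 5. ctt1, which encodes catalase, had 6463 and 5494 CPM in treated ubp8 cells, against 2517 and 3175 CPM in treated WT (1.07 ± 0.23). gpx1, the glutathione peroxidase gene and another classical peroxide-induced gene, had 2628 and 2967 CPM against 2390 and 2733 CPM and was not called (0.13 ± 0.20, adjusted p = 0.671). pmp20, a peroxiredoxin gene, was not called either (-0.27 ± 0.14, adjusted p = 0.143).

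Core stress genes are those that many stresses induce through Sty1 and Atf1. Of 23 tested 7 rose (30.4%, beside 16.6% of all genes) and 2 fell (8.7%, beside 15.7%), with a median of 0.34. In a fit of the 4 libraries alone 12 rose and 2 fell. Without peroxide 6 of the 23 were already higher in ubp8 and none was lower, beside 15.1% and 23.8% of all genes. Their untreated median was 0.36, beside -0.01 over all genes. With library totals as scaling 13 were higher there and the median was 0.65, beside 0.28 over all genes. zym1, the metallothionein gene, had 379.2 and 414.4 CPM in treated ubp8 cells, against 139.4 and 157.7 CPM in treated WT (1.42 ± 0.24). tms1, a hexitol dehydrogenase gene (1.20 ± 0.16), and fbp1, the fructose-bisphosphatase gene (1.16 ± 0.26), also rose. wwm3 went the other way, with 205.1 and 244.5 CPM against 493.8 and 543.5 CPM (-1.21 ± 0.21). The most abundant members were not called: ddr48 differed by 0.34 ± 0.27 (adjusted p = 0.375) and gpd1, the glycerol-3-phosphate dehydrogenase gene of osmotic stress, by 0.15 ± 0.20 (adjusted p = 0.596).

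Of 19 genes of the Sty1 pathway itself, none rose and 3 fell (15.8%), a share near the 15.7% of all genes that fell. These were pyp1 and pyp2, both encoding phosphatases that inactivate Sty1 (-0.52 ± 0.12 and -0.49 ± 0.18), and wis4, a kinase gene upstream of it (-0.39 ± 0.09). pyp2 had 486.8 and 513.2 CPM in treated ubp8 cells, against 677 and 728.1 CPM in treated WT. The call of pyp2 ended when any 1 of the 4 libraries was left out (-0.57 to -0.46), and that of wis4 with library totals as scaling (-0.23).

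The Hsp31 family and other enzymes that detoxify methylglyoxal had 6 of 9 members higher and none lower, with a median of 0.55. The share higher was 66.7%, beside 16.6% of all genes. Without replicate 1 of treated ubp8 fewer members passed, and the median was 0.34. hsp3102 had 45.9 and 36.49 CPM in treated ubp8 cells, against 14.21 and 11.94 CPM in treated WT (1.66 ± 0.22). hsp3105 was low in both strains and rose by 2.05 ± 0.37, and glo2 rose by 0.66 ± 0.13. For hsp3101, the most abundant of the family, the rise was 0.55 ± 0.20 (adjusted p = 0.0487) and did not pass when any 1 of the 4 libraries was left out (0.44 to 0.63). The list's glo3 is annotated as an ARF GTPase activator and not as a detoxifying enzyme.

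Of 6 genes that respond to uracil 4 were higher in treated ubp8 cells and none lower (66.7%, beside 16.6% of all genes that rose). urg1, which encodes a GTP cyclohydrolase, had 126.8 and 131.1 CPM in treated ubp8 cells, against 31.89 and 26.05 CPM in treated WT (2.15 ± 0.24). urg2, a putative uracil phosphoribosyltransferase gene, had 152.2 and 163.8 CPM against 41.57 and 42.72 CPM (1.91 ± 0.20). uck2 (1.56 ± 0.14) and urg3 (1.23 ± 0.14) rose as well. fur4, the uracil importer gene (-0.09 ± 0.08, adjusted p = 0.462), and urh1, a uridine hydrolase gene (0.03 ± 0.15, adjusted p = 0.916), were not called.

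In untreated ubp8 cells all 6 of these genes were lower than in untreated WT (5 with library totals as scaling), beside 38.4% of all coding genes. Over all genes 1947 of 8166 (23.8%) were lower there and 1233 (15.1%) higher. Those counts were 839 and 527 without replicate 2 of untreated ubp8, 552 and 631 without replicate 2 of untreated WT, 757 and 561 in a fit of coding genes alone, and 286 and 2216 with library totals as scaling. urg1 had 226.3 and 354 CPM in untreated ubp8 cells, against 541.9 and 938.4 CPM in untreated WT (-1.35 ± 0.22). The interaction of strain with treatment was called higher for 5 of the 6. Over all genes 856 of 8166 (10.5%) were called higher, 830 of them coding genes, and 518 (6.34%) lower. Library totals gave 405 and 572. For urg1 the interaction came to 3.51 ± 0.33, the treated difference minus the untreated one.

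Of 21 genes for mating and nitrogen starvation 10 were higher in treated ubp8 cells (47.6%, beside 16.6% of all genes), none was lower and 11 were not called, with a median of 0.73. ste11, the master transcription factor gene of sexual differentiation, had 85 and 54 counts in treated ubp8 libraries, against 7 and 10 counts in treated WT, a ratio of 6.53 with an interval of 3.94 to 11.5. isp7, an oxygenase gene induced by nitrogen starvation, had 40.25 and 33.47 CPM against 11.58 and 12.83 CPM (1.60 ± 0.13). isp5, an amino acid transporter gene (1.47 ± 0.28), and mam1, the M-factor exporter gene (0.73 ± 0.14), rose too. mfm2, an M-factor precursor gene, was not called (0.72 ± 0.58, adjusted p = 0.371).

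The markers of both mating types were counted beside these genes. Of 3 P-cell markers 2 were higher, map1, a transcription factor gene (1.49 ± 0.19), and map3, a pheromone receptor gene (1.16 ± 0.28). Of 5 M-cell markers 1 was higher. The shares were 66.7% and 20%, beside 16.6% of all genes, so the M-cell share is near that of all genes. map1 is also a member of the mating list above. The call of map3 ended without replicate 1 of treated ubp8 (0.94) or replicate 2 of treated WT (0.93). Summed P-cell markers held 36.2 and 26.1 CPM in treated ubp8 cells, against 12.1 and 11.6 CPM in treated WT. Summed M-cell markers held 57.9 and 55.5 CPM against 36.2 and 33.6 CPM. Both sums were higher in each mutant library, and their part in the result was not tested.

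Flocculins, the cell surface glycoproteins of cell clumping, and their regulators had 6 of 11 members higher and none lower. The share higher was 54.5%, beside 16.6% of all genes, and the median was 0.44. mbx2, a MADS-box activator gene of flocculation, had 40 and 28 counts in treated ubp8 libraries, against 5 and 3 counts in treated WT, a ratio of 6.79 with an interval of 3.26 to 16.4. pfl5 (1.08 ± 0.21) and pfl7 (1.01 ± 0.12), both flocculin genes, rose as well. cbf12, another regulator, rose by 1.15 ± 0.29, which did not pass without replicate 1 of treated ubp8 (0.81) or replicate 2 of treated WT (0.78).

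Targets of MBF, the factor that drives genes for entry into S phase, had 8 of 14 members higher and none lower. The share higher was 57.1%, beside 16.6% of all genes, and the median was 0.45. cdc18, which encodes the replication licensing factor, had 82.12 and 76.55 CPM in treated ubp8 cells, against 33.57 and 33.35 CPM in treated WT (1.25 ± 0.15). cig2, a G1/S cyclin gene, had 33.14 and 33.38 CPM against 16.31 and 15.98 CPM (1.04 ± 0.13). cdc22, the ribonucleotide reductase gene, rose by 0.84 ± 0.19, and mik1, a mitotic inhibitor kinase gene, by 0.83 ± 0.26. mik1 did not pass without replicate 1 of treated ubp8 (0.49), replicate 1 of treated WT (0.90) or replicate 2 of treated WT (0.72). Fewer members passed with a library left out: 3 without replicate 1 and 5 without replicate 2 of treated ubp8, and 4 without either replicate of treated WT.

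Heterochromatin and RNA interference genes had 8 of 20 members higher (40%, beside 16.6% of all genes) and none lower, with a median of 0.28. clr4, the H3 lysine methyltransferase gene, had 7.405 and 8.597 CPM in treated ubp8 cells, against 3.157 and 4.341 CPM in treated WT (1.08 ± 0.22). epe1, which encodes the factor that keeps heterochromatin from spreading, had 30.06 and 35.3 CPM against 15.68 and 16.67 CPM (1.01 ± 0.13). clr2 of the SHREC complex rose by 0.68 ± 0.14, and cid12, an RNA interference polymerase gene, by 0.83 ± 0.24. The call of cid12 ended without replicate 1 of treated ubp8 (0.68) and without replicate 1 (0.75) or 2 (0.86) of treated WT. Between 4 and 5 members passed when any 1 of the 4 libraries was left out.

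Autophagy genes had 10 of 28 members higher (35.7%, beside 16.6% of all genes) and 1 lower (3.57%, beside 15.7%), with a median of 0.18. The mitophagy receptor gene atg43 (1.62 ± 0.15) led the rises. Amino acid and peptide permeases had 3 of 8 higher (37.5%) and 1 lower (12.5%). The share that fell was near the 15.7% of all genes. ptr2, the peptide transporter gene, had 23.61 and 22.5 CPM in treated ubp8 cells, against 9.471 and 8.979 CPM in treated WT (1.32 ± 0.12). put4, the proline permease gene (0.99 ± 0.17), rose with it, while cat1, the arginine and lysine permease gene, fell (-0.59 ± 0.11).

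Genes for building ribosomes were lower. Of 136 cytosolic ribosomal protein genes 98 fell (72.1%, beside 15.7% of all genes) and 1 rose, with a median of -0.40. Reads of near-identical copies, which many of these genes have, are of uncertain origin. Their summed level was 164622.3 and 160987.6 CPM in treated ubp8 cells, against 206440.9 and 218231.2 CPM in treated WT. rpl102 had 399.7 and 380.7 CPM against 902.7 and 810.2 CPM (-1.13 ± 0.09), rpl3002 fell by 1.28 ± 0.11 and rpl1603 by 0.92 ± 0.12. rps1401 alone was called higher, with 197.2 and 179.4 CPM against 85.66 and 96.4 CPM (1.05 ± 0.12). Without replicate 2 of treated ubp8 65 members fell, and without replicate 2 of treated WT 66.

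Ribosome biogenesis genes had 63 of 89 members lower (70.8%, beside 15.7% of all genes) and 2 higher (2.25%, beside 16.6%). Their median was -0.42, and with library totals as scaling 40 were lower and 5 higher. nip7 had 33.29 and 36.31 CPM in treated ubp8 cells, against 71.56 and 68.38 CPM in treated WT (-1.01 ± 0.10). nop12 fell by 0.98 ± 0.10, brx1 by 0.94 ± 0.09 and ytm1 by 0.83 ± 0.09. Of 8 RNA polymerase I genes 7 fell (87.5%, beside the same 15.7%), among them that of the large subunit, nuc1 (-0.54 ± 0.08).

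Biosynthetic and energy genes were lower in part. Amino acid biosynthesis had 33 of 51 members lower (64.7%, beside 15.7% of all genes) and 2 higher, with a median of -0.42. aro2, the chorismate synthase gene, had 265.6 and 259.6 CPM in treated ubp8 cells, against 446.2 and 439.5 CPM in treated WT (-0.75 ± 0.10). lys3 fell by 0.69 ± 0.11, and arg7 was 1 of the 2 that rose (0.80 ± 0.12). Of 16 purine and pyrimidine synthesis genes 12 fell (75%, beside the same 15.7%) and none rose, with ade5 and ade9 both at -0.61. Of 6 genes often used as strain markers 5 fell (83.3%, beside the same 15.7%), among them lys1 (-0.60 ± 0.10), leu1 (-0.53 ± 0.11) and ura4 (-0.37 ± 0.10). The summed level of the 6 was 2112.9 and 2066.4 CPM against 2740.6 and 2849.1 CPM. The call of ura4 ended without replicate 2 of treated WT (-0.30).

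Respiratory chain and ATP synthase genes had 25 of 50 members lower (50%, beside 15.7% of all genes) and 2 higher, with a median of -0.36. cox5 had 149.9 and 133.2 CPM in treated ubp8 cells, against 231.8 and 252.3 CPM in treated WT (-0.77 ± 0.11), and cox4 fell by 0.67 ± 0.10. cox18, an assembly factor gene, rose by 0.76 ± 0.18, but not without replicate 1 of treated ubp8 (0.56) or of treated WT (0.53). The ATP synthase genes atp1 (-0.28 ± 0.11, adjusted p = 0.066) and atp2 (-0.04 ± 0.11, adjusted p = 0.816) were not called. In glycolysis 7 of 16 genes fell (43.8%, beside 15.7% of all genes) and 2 rose (12.5%, beside 16.6%). gpm1, the phosphoglycerate mutase gene, had 2026 and 1929 CPM against 3078 and 3114 CPM (-0.65 ± 0.11), gpd3 fell by 1.12 ± 0.18, and the rises were eno102 and pdc201, a pyruvate decarboxylase gene (1.40 ± 0.25).

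**Figure D4:**
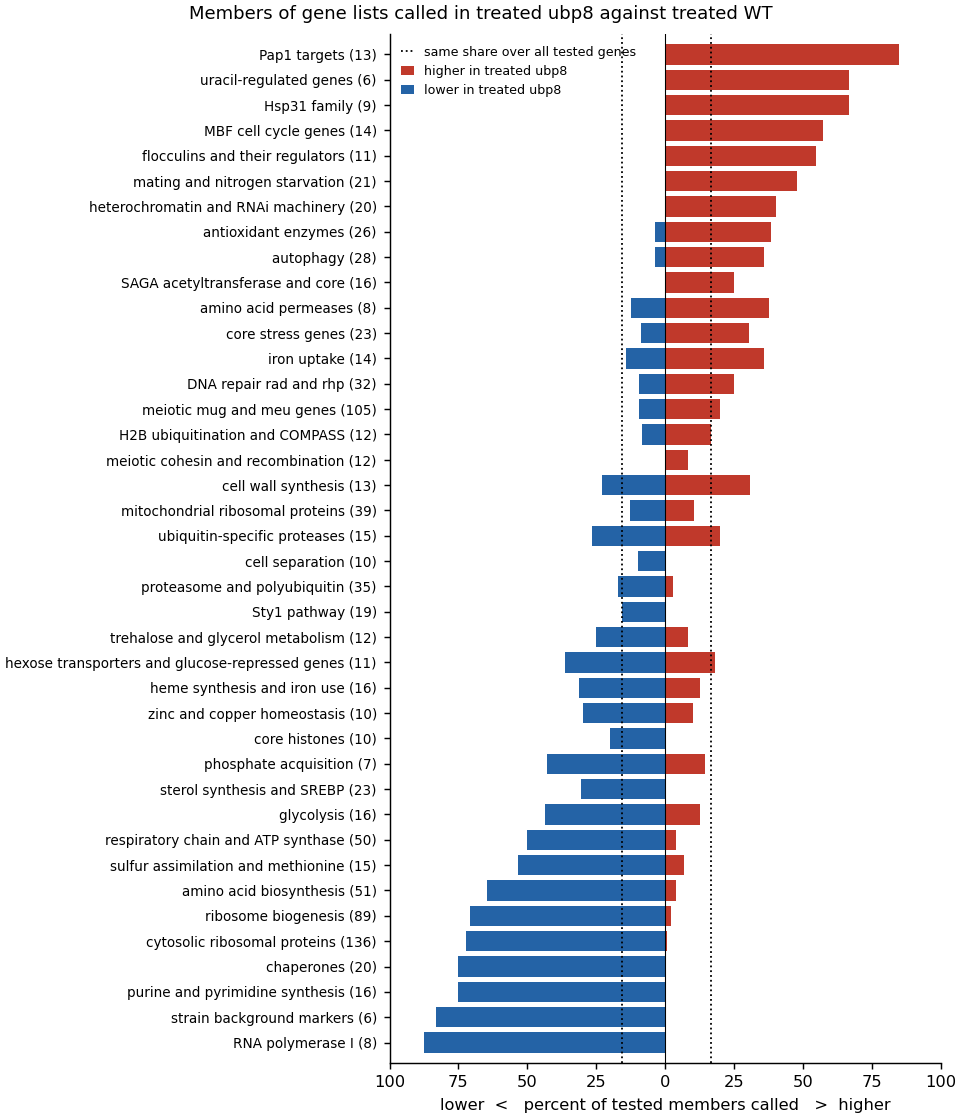
Share of the tested members of each gene list called higher (red, to the right) or lower (blue, to the left) in treated ubp8 cells, in percent, with the number of members in brackets and the shares over all tested genes (16.6% and 15.7%) as dotted lines. Lists of at least 6 tested genes are shown; Pap1 targets lie at one end and RNA polymerase I genes at the other.

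Iron uptake genes had 5 of 14 members higher (35.7%) and 2 lower (14.3%), beside 16.6% and 15.7% of all genes. The share that fell was near that of all genes. str3, a siderophore transporter gene, had 53.74 and 51.76 CPM in treated ubp8 cells, against 13.58 and 9.077 CPM in treated WT (2.22 ± 0.41). shu1, a heme uptake gene, had 19.5 and 12.99 CPM against 3.262 and 2.861 CPM (2.42 ± 0.53). fio1, the iron permease partner gene, rose by 0.88 ± 0.19, and fep1, the iron-sensing repressor gene, fell by 0.68 ± 0.15. The more abundant str1 (0.35 ± 0.18, adjusted p = 0.15) and frp1 (0.44 ± 0.20, adjusted p = 0.115) were not called. ght3, a gluconate transporter gene of the same run as str3 and shu1, had 22.8 and 16.19 CPM against 8.734 and 5.525 CPM (1.47 ± 0.24).

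Glycerol metabolism divided by gene. dak2, a dihydroxyacetone kinase gene, had 81.82 and 51.76 CPM in treated ubp8 cells, against 26.62 and 23.09 CPM in treated WT (1.43 ± 0.23). gpd2 fell by 0.85 ± 0.10. gld1, the glycerol dehydrogenase gene, fell by 1.30 ± 0.43, and this did not pass without replicate 1 (-1.12) or replicate 2 (-1.53) of treated ubp8 or without replicate 2 of treated WT (-1.06).

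Genes of the SAGA complex other than ubp8 differed by less than 2-fold. The other deubiquitinase subunit genes sgf11 (0.28 ± 0.13, adjusted p = 0.108) and sgf73 (0.27 ± 0.15, adjusted p = 0.181) were not called. Of 16 genes listed for the acetyltransferase and core 4 rose and none fell, with a median of 0.04. The share that rose was 25%, beside 16.6% of all genes and 18.6% of coding genes. The list's ada1 is annotated as an adenosine deaminase and not as a SAGA subunit. gcn5, the acetyltransferase gene, had 41.13 and 37.59 CPM in treated ubp8 cells, against 26.2 and 29.11 CPM in treated WT (0.51 ± 0.12). spt8 rose by 0.49 ± 0.11, taf5 by 0.29 ± 0.09 and spt7 by 0.25 ± 0.08. None of the 4 calls held without replicate 1 of treated ubp8, where the values were 0.41, 0.39, 0.17 and 0.18. Without replicate 1 of treated WT gcn5 (0.41), taf5 (0.19) and spt7 (0.20) did not pass, and spt7 also failed without replicate 2 of treated ubp8 (0.28) or of treated WT (0.26).

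Of 12 genes of H2B ubiquitination and of the COMPASS methyltransferase 2 rose (16.7%) and 1 fell (8.33%), beside 16.6% and 15.7% of all genes, so the share that rose is near that of all genes. The rises were ash2 (0.36 ± 0.10) and swd2 (0.50 ± 0.14), and the fall was the H2B ubiquitin ligase gene brl2 (-0.29 ± 0.08). Of 15 ubiquitin-specific protease genes 3 rose (20%) and 4 fell (26.7%), ubp8 included, beside the same 16.6% and 15.7%. ubp11 had 30.72 and 34.57 CPM in treated ubp8 cells, against 79.24 and 87.91 CPM in treated WT (-1.36 ± 0.12). The mutant libraries of ubp11 lay below both WT libraries by more than 2-fold. ubp9 rose by 0.41 ± 0.09 and ubp4 by 0.44 ± 0.15. With 1 library left out, ash2 passed only without replicate 2 of treated WT (0.27 to 0.34 in the others), and ubp4 likewise (0.24 to 0.42). swd2 (0.39 both times) did not pass without replicate 2 of treated ubp8 or replicate 1 of treated WT, nor did brl2 without replicate 2 of treated ubp8 (-0.29) or of treated WT (-0.30).

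Small nucleolar RNAs, which guide the modification of ribosomal RNA, took 0.06% and 0.0615% of counts in treated ubp8 libraries, against 0.189% and 0.192% in treated WT. snR30, which acts in ribosomal RNA cleavage, had 296.7 and 283.6 CPM against 1186 and 1334 CPM (-2.12 ± 0.12). snR95 had 31.23 and 26.25 CPM against 125.2 and 139.8 CPM (-2.20 ± 0.13), and snR33 fell by 2.76 ± 0.34. In contrast snoU14 had 17.23 and 23.78 CPM against 15.15 and 22.79 CPM and was not called (0.10 ± 0.19, adjusted p = 0.715). The libraries were made from polyA RNA, and mature small nucleolar RNAs largely lack a polyA tail. In untreated cells 5 of the 42 were lower and 1 higher, beside 23.8% and 15.1% of all genes. Their untreated median was -0.12, which turned to 0.17 with library totals as scaling. The small nucleolar RNAs named here were chosen after their values had been seen.

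Among long non-coding RNAs SPNCRNA.87 had 6.525 and 8.414 CPM in treated ubp8 cells, against 73.98 and 72.72 CPM in treated WT (-3.30 ± 0.26). SPNCRNA.5756 had 7.478 and 10.52 CPM against 77.03 and 67.69 CPM (-3.02 ± 0.25). Without peroxide SPNCRNA.87 had 7.738 and 9.452 CPM in ubp8 cells, against 10.16 and 4.238 CPM in WT, and neither RNA was called there (0.27 ± 0.28 and 0.15 ± 0.28). Rises were led by SPNCRNA.1303 (3.86 ± 0.35), SPNCRNA.5025 (3.69 ± 0.41), SPNCRNA.1093 (3.60 ± 0.36) and SPNCRNA.1301 (3.31 ± 0.26). SPNCRNA.1301 had 24.27 and 21.4 CPM against 2.947 and 1.677 CPM. Reads of overlapping genes may not be told apart where the counting did not use strand.

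The untreated libraries, which share no library with the treated comparison, were used to see which differences were there before peroxide. Of the 1356 genes higher in treated ubp8 cells 427 were also higher in untreated ubp8, which is 31.5% of the treated list and 34.6% of the untreated list, beside 15.1% of all genes. Of the 1281 lower genes 698 were lower in both, 54.5% of the treated and 35.9% of the untreated list, beside 23.8% of all genes. Opposite calls were made for 111 of the higher and 58 of the lower genes. Among coding genes alone 160 of the 921 higher genes (17.4%, and 50% of the untreated list) were also higher in untreated ubp8, beside 6.46% of all coding genes, and 108 had the opposite call, so that most of the shared rises were outside coding genes. Of the 1013 lower coding genes 678 (66.9%, and 35.7% of the untreated list) were lower in both, beside 38.4% of all coding genes. The untreated fold change had the same sign for 54.1% of the higher and 90% of the lower coding genes. The share over all coding genes, 63.7%, pools both directions. It is no baseline for 1 direction alone, since the untreated median of coding genes was -0.21 (0.086 with library totals as scaling).

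The groups of genes differed in this respect. Ribosomal protein genes also had a median of -0.40 before peroxide, with 102 of 136 lower, beside -0.21 and 38.4% over all coding genes. The interaction was called for 1 of them higher and 3 lower. Ribosome biogenesis genes had a median of -0.40 with 69 of 89 lower, and the interaction was called for 6 higher and 9 lower. eno102 (4.14 ± 0.27) and cmt2 (3.04 ± 0.21) were likewise higher already in untreated ubp8. Chaperones had a median of -0.16 with 3 lower in untreated cells, Pap1 targets a median of -0.17 with 1 higher and 2 lower, and MBF targets a median of -0.19 with 2 lower. These untreated values depend on scaling: with library totals the median of all genes was 0.28, against -0.01, and the medians turned to 0.14 for chaperones (5 higher and none lower), 0.11 for Pap1 targets (1 higher and 1 lower) and 0.10 for MBF targets (none called). Both ribosomal lists then had medians of -0.11, with 33 ribosomal protein and 10 biogenesis genes lower.

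The interaction of strain with treatment tested these changes of difference, and was called for 8 chaperones (all lower), 9 Pap1 targets and 6 MBF targets (all higher), beside 6.34% of all genes lower and 10.5% higher. Of 4954 coding genes, the kind in these lists, 830 were called higher and 186 lower. Of 3109 long non-coding RNAs 23 were called higher and 312 lower. With library totals as scaling 405 interactions over all genes were higher and 572 lower. For hsp16 it was -1.79 ± 0.37, where untreated ubp8 cells had 57.48 and 94.77 CPM and untreated WT 51.56 and 87.24 CPM. For caf5 it was 2.19 ± 0.25, where untreated ubp8 had 51.5 and 48.81 CPM and untreated WT 51.76 and 44.06 CPM. The largest interactions by the rule also took in SPAC29B12.14c, a purine transporter gene (2.43 ± 0.22), SPCC70.08c, a methyltransferase gene (-2.06 ± 0.29), and the uncharacterized SPBC1271.08c (-2.20 ± 0.38) and SPAC688.16 (-1.84 ± 0.44). For msa1, an RNA-binding protein gene, it was 2.74 ± 0.33: the gene was not called in treated cells (0.06 ± 0.27, adjusted p = 0.9) and was lower without peroxide, with 10.66 and 11.18 CPM in untreated ubp8 against 75.39 and 65.69 CPM in untreated WT (-2.69 ± 0.19). Interaction calls over all genes depend on single libraries: 174 were higher and 248 lower without replicate 1 of treated ubp8, 175 and 246 without replicate 1 of treated WT, 432 higher without replicate 2 of treated ubp8 and 366 higher without replicate 2 of treated WT.

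**Figure D5:**
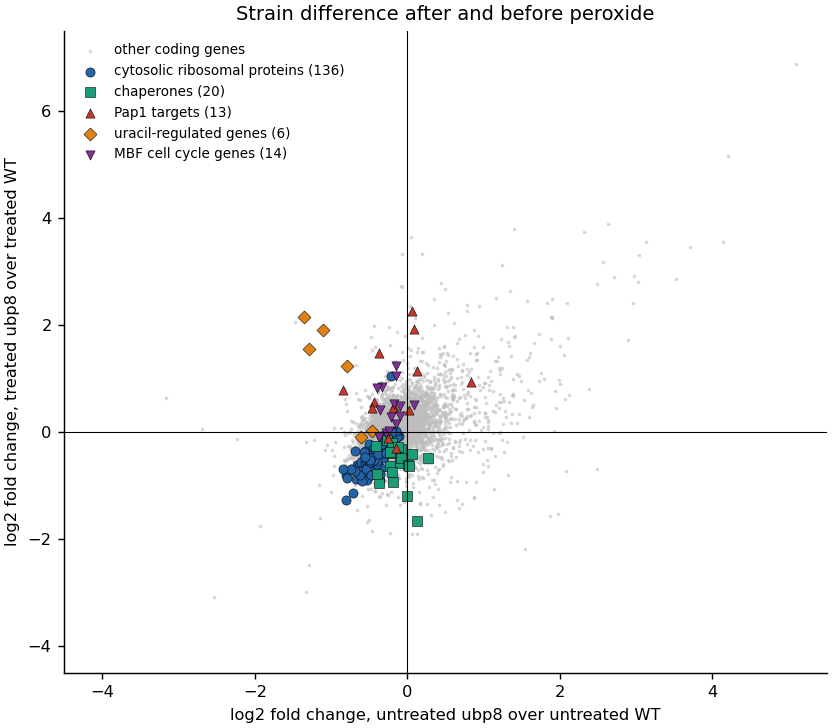
Log2 fold change of ubp8 over WT in treated cells (vertical) against that in untreated cells (horizontal), for each tested coding gene, with 5 gene lists marked. Ribosomal protein genes mostly lie below and to the left of 0, chaperones below 0 and near the vertical line, Pap1 and MBF targets mostly above 0 and near it, whose side of that line depends on scaling, and 4 uracil-regulated genes in the upper left.

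Genes that peroxide changed were chosen from the ubp16 mutant, whose libraries take no part in the comparison, at 2-fold or more, 11.2% of all genes raised and 9.67% lowered. Of the 917 genes that peroxide raised in ubp16, 298 (32.5%) were higher and 101 (11%) lower in treated ubp8 against treated WT. Of the 790 genes that it lowered there, 82 (10.4%) were higher and 252 (31.9%) lower. Over all tested genes 16.6% were higher and 15.7% lower. The share of lower genes in the set that peroxide lowered depends on the threshold and on scaling: it was 17.1% (38 of 222) for genes lowered at least 4-fold, near the share over all genes, and 19.7% with library totals. At 2-fold the medians were 0.29 and -0.21, beside 0.04 over all genes.

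Treated ubp16 cells are set beside treated ubp8 cells here; both comparisons use the same WT libraries, so only the direct test between the mutants bears on a difference. Against treated WT, 2344 genes (28.7%) were higher and 2161 (26.5%) lower in treated ubp16. Directly, 1736 genes (21.3%) were higher in treated ubp8 than in treated ubp16 and 1824 (22.3%) lower. caf5 had 426.6 and 250.1 CPM in treated ubp8, against 1362 and 1517 CPM in treated ubp16, a difference of -2.09 ± 0.17. trr1 (-2.00 ± 0.17), osr1 (-4.21 ± 0.17), urg1 (-4.11 ± 0.24) and hhy1 (-4.35 ± 0.25) were lower in treated ubp8 as well.

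Other genes were higher in treated ubp8 than in treated ubp16. hsp16 had 374.8 and 648.3 CPM in treated ubp8, against 203.8 and 181.8 CPM in treated ubp16 (1.41 ± 0.26). met17 had 51.47 and 48.93 CPM against 3.678 and 4.097 CPM (3.69 ± 0.24), and ubp11 differed by 2.92 ± 0.15. spn5 (2.32 ± 0.26), mbx2 (2.36 ± 0.41) and SPNCRNA.1301 (4.30 ± 0.29) were higher in treated ubp8. hsp104 did not differ by the test, at 0.20 ± 0.18 (adjusted p = 0.391).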

How the data were processed

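PolyA RNA was measured in 12 libraries, 2 for each of 6 groups taken from the sample labels, and the comparison uses 4 of them. The authors deposited raw read counts per gene, 1 column per library. The submitters' processing notes list DESeq2, HTSeq, STAR, Trimmomatic and FastQC, with no version for any. No source used here gives the genome build. Of 12683 genes listed, 12602 matched the RefSeq ASM294v3 annotation by identifier, which served for names, kinds of gene, chromosome ends and the sequence before each gene's start; the 81 others held 0.0642% of counts. How strand was used in counting is not given either.

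The analysis used edgeR 4.0.16 (R 4.3.3). After filterByExpr, 8166 genes with 99.95% of counts remained; TMM gave the scaling factors, and all 12 libraries entered one quasi-likelihood fit by group, leaving 6 residual degrees of freedom. The report gives library totals and the CPM that 3 counts come to. Adjusted p-values are Benjamini-Hochberg values over all tested genes within a comparison, at a threshold of 0.05. SE were obtained from the log2 fold change and the F statistic (their quotient with F under a root). CPM are relative to the scaled library, and intervals and floors cover counting error only. The interaction is the treated difference between ubp8 and WT minus the untreated one. The procedure was tested on simulated counts. Motifs (12 searched) were counted on both strands in the 250 bases before each annotated start. Figures were drawn with Python 3.11.15 and matplotlib 3.10.9.

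The comparison, the gene lists and the genes named were chosen with earlier results of these data known. Genes were named by a rule: ubp8, ctt1 and the neighbours of ubp8; up to 12 coding genes and 4 long non-coding RNAs per direction that changed most, had no overlap between groups and averaged 50 counts or more over the 4 libraries; up to 4 called and 2 abundant uncalled members of each list; and, with the same count minimum, the coding genes of largest called interaction, at most 6 per direction. The small nucleolar RNAs and the shown upstream windows of caf5, gst2 and hsp16 were chosen after their values were seen, as was the distance of 100 kb from chromosome ends. The alternatives tried were DESeq2 1.42.0, limma-voom (limma 3.58.1), scaling by library totals or by median-of-ratios factors, no count filter, a stricter filter (mean of 50 counts or more), coding genes alone, only the 4 libraries, a replicate block and each library left out in turn.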

Additional observations from a re-analysis of the deposited data

Results flagged for a closer look

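These genes drew attention because the difference between ubp8 and WT in treated cells was itself different from that in untreated cells, by an adjusted p under 0.05 for the interaction in edgeR's quasi-likelihood test. Values are interactions on the log2 scale, treated minus untreated. No explanation of them was tested, and the number of such calls depends on single treated libraries.

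Interactions below 0, where the treated difference lay lower than the untreated one, were those of SPAPB24D3.07c (-1.65), bsu1 (-1.97), zpr1 (-1.39), SPAPB1A10.05 (-1.13), inv1 (-1.85), mug45 (-1.99), met17 (-0.80), thi9 (-0.85) and thi201 (-1.09). The chaperones hsp16 (-1.79), hsp104 (-1.20), hsp78 (-0.75) and mas5 (-0.59) belonged with them. So did ubp11 (-1.26), cat1 (-0.58), rpl102 (-0.42), nip7 (-0.67), nop12 (-0.60), brx1 (-0.56), SPCC70.08c (-2.06), SPBC1271.08c (-2.20), SPAC688.16 (-1.84), and the non-coding RNAs SPNCRNA.87 (-3.58) and SPNCRNA.5756 (-3.17).

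Interactions above 0 included the Pap1 targets caf5 (2.19), gst2 (1.86), trr1 (1.87) and osr1 (1.02). Those of the uracil-regulated genes were urg1 (3.51), urg2 (3.02), urg3 (2.02), uck2 (2.86) and fur4 (0.52). For genes of mating, starvation and flocculation they were ste11 (2.19), isp7 (2.29), isp5 (0.96), mbx2 (2.80), cbf12 (1.41) and pfl5 (0.85). The MBF targets had cdc18 (1.39), cig2 (1.19), cdc22 (1.18) and mik1 (1.23), and heterochromatin genes clr4 (1.00), epe1 (1.19) and clr2 (0.71). SAGA and related genes had spt8 (0.83), taf5 (0.67), ash2 (0.63) and ubp9 (0.64). The rest were hhy1 (3.14), msa1 (2.74), str3 (1.69), SPAC29B12.14c (2.43), ptr2 (1.49), put4 (0.97), atg43 (1.14), arg7 (0.68) and rps1401 (1.26).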

How the results depend on the processing

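Of 140 genes followed, 106 kept their direction and their side of the threshold under every alternative run, at most 13 each. Reversals were among genes not called: with library totals oxr1 (0.04), fur4 (0.07) and atp2 (0.12); atp2 with a mean of at least 50 counts (0.00); urh1 with median-of-ratios factors or DESeq2 (-0.01) and with 1 library left out (-0.11 to 0.13); likewise sgf73 (-0.01 to 0.46) and msa1 (-0.22 to 0.33). The causes of the changes in counts were not tested. Counts of higher and lower genes were 2128 and 769 with library totals for treated cells, 2216 and 286 for untreated cells, with 405 higher interactions. With a mean of at least 50 counts 759 genes were lower in untreated ubp8 and 487 interactions were higher. Fits of coding genes alone gave 561 higher and 757 lower untreated, and 409 higher and 312 lower interactions; with no filter 859 interactions were lower. DESeq2 called 1006 higher and 1339 lower in treated cells.

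Leaving out 1 library gave 729 to 972 higher in treated ubp8, 527 to 930 higher and 552 to 1765 lower in untreated ubp8, and 174 to 432 higher and 246 to 528 lower interactions. Members called ranged over 7 to 10 for Pap1 targets, 5 to 8 for antioxidant enzymes, 3 to 6 for the Hsp31 family, 3 to 5 for MBF targets, 4 to 5 for heterochromatin genes and 65 to 86 for ribosomal proteins. Only the 4 libraries gave 12 higher core stress genes, and library totals 40 lower ribosome biogenesis genes. For genes lowered by peroxide in ubp16, 17.1% were lower at a 4-fold threshold and 19.7% with library totals.

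Deviations of same-numbered ubp8 and WT libraries correlated over genes at -0.007 (treated) and 0.056 (untreated). Treated and untreated libraries of a strain were not compared in this way, so whether replicate numbers pair the samples is not known. With a replicate block 1465 genes were higher and 1402 lower in treated ubp8, 1346 and 2119 in untreated ubp8, and 1040 and 640 interactions; ssa1 (-0.48), sro1 (-0.30) and pmp20 (-0.28) then passed. The list counts with only the 4 libraries and with the block were chosen after seeing the data. With 2 libraries a group, differences under the spread of single libraries were not detectable, and genes under 3 counts in a library give bounds by counting alone.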
